A study of Mus musculus with 4 samples.

Results

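Cells take up iron from plasma transferrin, store it in ferritin, and release it through ferroportin. Transferrin-bound iron enters by the transferrin receptor, is reduced in the endosome, crosses the endosomal membrane through a divalent metal transporter, and is carried into mitochondria for haem and iron-sulphur cluster synthesis. A pair of iron regulatory proteins bind stem-loops in the untranslated regions of several of these transcripts when iron is scarce. They block translation of ferritin and ferroportin and protect the transferrin receptor transcript from decay. Before birth the liver is both the main site of red cell formation and an iron store, so its erythroblasts, macrophages and hepatocytes all contribute to these transcripts.

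The set described here holds 9 named genes: Tfrc, Slc11a2, Steap3 and Slc25a37 for uptake and delivery, Fth1 and Ftl1 for storage, Slc40a1 for export, and Ireb2 and Aco1 for control. Each gene was taken from the probe sets whose platform annotation names that symbol and no other, and was represented by the brightest of these by mean signal. This gave 8 of the 9 genes, out of the 11691 genes tested in all. Ftl1 had no probe set of its own. The 8 genes had 22 such probe sets together, of which 3 are the array's control sets for Tfrc.

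Livers came from Sox17+/- and wildtype mouse fetuses of the C57BL/6 (B6) strain on gestation day 17, with 2 biological replicates of each genotype, 1 array per replicate and 4 arrays in all. Both genotypes came from the same kind of cross, virgin C57BL6 females with Sox17+/- males, and the Sox17+/- fetuses are heterozygous for Sox17. The sources used here do not describe the allele, the sex of the fetuses, or the number of fetuses behind each RNA sample. Where replicates do not come from separate litters, p-values measure the spread between these samples alone. The tissue was separated from the biliary system before RNA extraction, and the whole liver entered the array, so in these bulk samples fewer cells of a type and less RNA per cell cannot be told apart.

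Sox17, the targeted gene, had signals of 105 and 99.6 in Sox17+/- against 238 and 167 in wildtype liver on one probe set, and of 139 and 124 in Sox17+/- against 244 and 264 in wildtype liver on the other, lower in Sox17+/- with no overlap on both. Where these probe sets lie relative to the altered allele was not analysed here. The brighter 50% of probe sets held 8 of 9 hepatocyte, 14 of 15 erythroid, 13 of 14 macrophage and 3 of 5 biliary markers that had a probe set with 1 symbol. The markers outside it were Tat, Hba-a1, Cd163, and the biliary Krt7 and Cftr. Afp, the fetal plasma carrier, had signals of 49608 and 28035 in Sox17+/- and 49260 and 30256 in wildtype liver. The arrays with the same replicate number share a code in the labels and resembled each other. The brightest signal was 56860 and 32468 on the Sox17+/- arrays numbered 1 and 2 and 56988 and 34407 on the wildtype arrays. Wildtype array 1 stood apart in the 3' control signal of beta-actin, at 11909.5 against 24712 to 35014 on the other arrays. Differences are given below on the log2(signal + 16) scale, which understates the difference of dim genes, as Sox17+/- minus wildtype, with the pair of arrays numbered 1 and the pair numbered 2 beside the mean.

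For none of the 8 genes was the difference between genotypes larger than the spread between arrays. Their log2 differences lay between -0.16 and 0.51, with a median of -0.03, against a median of -0.02 over all tested genes. In limma's test across 22519 probe sets, 0 of the 8 passed a Benjamini-Hochberg adjusted p of 0.05, as 0% of all probe sets did, and 0 of the 8 had an unadjusted p under 0.05, against 923 probe sets (4.1%) in all, 1.79% higher and 2.31% lower in Sox17+/-. The smallest unadjusted p among them was 0.427, for Steap3. The 2 genotypes overlapped for all 8 genes. Over all tested genes 33.2% had genotypes that did not overlap. Slc40a1 and Steap3 lay above wildtype in both pairs, 2 of 8 against 25.5% of all tested genes. Tfrc and Slc25a37 lay below wildtype in both, 2 of 8 against 32.2%, and the other 4 went opposite ways.

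**Figure D1:**
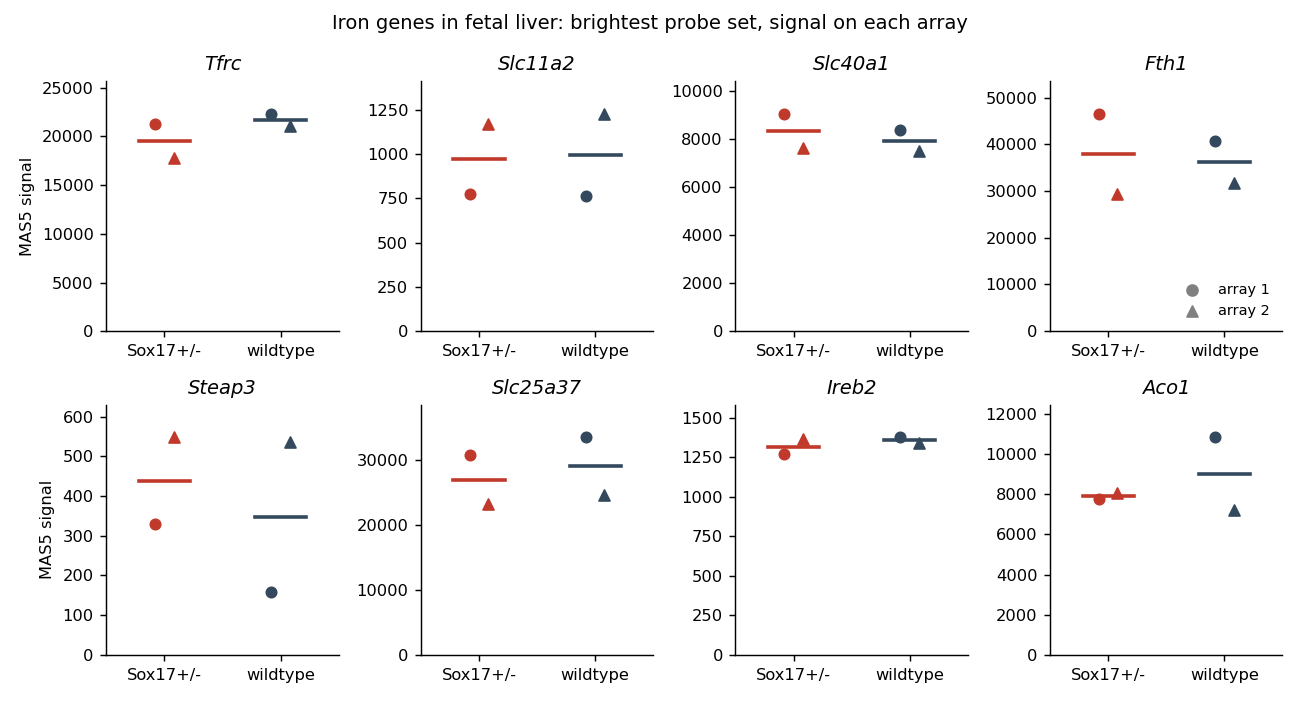
Deposited MAS5 signal (vertical axis, linear, from 0) of the brightest probe set of each of 8 iron genes in Sox17+/- and wildtype liver; circles are the arrays numbered 1, triangles those numbered 2 and bars the mean of the 2 arrays. The genotypes overlap in every panel, and in all 8 panels the arrays of at least 1 genotype lie further apart than the genotype means.

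Among the uptake genes, Tfrc encodes transferrin receptor 1, the main route of iron into erythroblasts, and lies at chr16:32608896-32632794 (GRCm38.p6, RefSeq). Its brightest probe set had signals of 21238 and 17785 in Sox17+/- liver against 22339 and 21047 in wildtype liver. Sox17+/- array 2 was the lowest of the 4, and the other Sox17+/- array lay between the wildtype arrays. The mean was 19511 ± 2442 in Sox17+/- and 21693 ± 914 in wildtype liver (SD, n = 2 each), a log2 difference of -0.16 (SE 0.21, 95% interval -0.70 to 0.38, adjusted p = 0.9999 by limma). The difference was -0.07 within the arrays numbered 1 and -0.24 within those numbered 2.

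The other Tfrc probe sets separated the array numbers and not the genotypes. The second brightest gave 7578 and 10545 in Sox17+/- against 6601 and 13237 in wildtype liver, and the dimmest set that is no control 1524 and 3643 in Sox17+/- against 1566 and 4868 in wildtype liver. The array's control set for the 5' end of Tfrc gave 1055 and 2473 in Sox17+/- against 1136 and 3628 in wildtype liver. On 5 of the 6 Tfrc probe sets both arrays numbered 2 were brighter than the same-genotype array numbered 1, and on the brightest set they were dimmer. For the 5' control set, array 2 was 2.35 times as bright as array 1 in Sox17+/- and 3.19 times as bright in wildtype liver. The ratio of 3' to 5' control signal for Tfrc was 4.31 and 2.75 on the Sox17+/- arrays and 3.38 and 2.31 on the wildtype arrays, higher on the arrays numbered 1 in both genotypes. The same ratio for Gapdh was 0.843 and 0.832 in Sox17+/- and 0.853 and 0.807 in wildtype liver, and that for beta-actin was 1.43 and 1.20 in Sox17+/- and 1.95 and 1.25 in wildtype liver. Both were higher on the arrays numbered 1 in both genotypes as well, but the Gapdh ratios differed little. The array's BioB control set gave 1365 and 604 on the Sox17+/- arrays and 1843 and 609 on the wildtype arrays, also higher on those numbered 1. The part of RNA, labelling or hybridization quality in these values was not tested.

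Steap3, the reductase that turns ferric into ferrous iron in erythroid endosomes, lies at chr1:120226414-120271081 and was the dimmest of the set. Its signals were 330 and 548 in Sox17+/- liver against 158 and 537 in wildtype liver. The arrays numbered 2 were almost level, Sox17+/- array 1 was lower, and wildtype array 1 was the lowest. The log2 difference of 0.51 (SE 0.59, 95% interval -0.99 to 2.01, adjusted p = 0.9999 by limma) was 0.99 in the arrays numbered 1 and 0.03 in those numbered 2. Without wildtype replicate 1 it was -0.32, and without wildtype replicate 2 it was 1.35. All 3 Steap3 probe sets were brighter on array 2 than on array 1 in both genotypes, as Tfrc was on most of its sets. The second probe set, nearly as bright, gave 218 and 502 in Sox17+/- against 170 and 614 in wildtype liver, a log2 difference of 0.02 (SE 0.68). The third gave 173 and 344 in Sox17+/- against 149 and 279 in wildtype liver. Its log2 difference was 0.24 (SE 0.43), higher in both pairs, and the genotypes overlapped. The tested genes with the profile nearest to that of Steap3 over the 4 arrays were Stk11ip, Swsap1 and Cap1, at Euclidean distances of 0.023, 0.25 and 0.26 in centred log2 signal.

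**Figure D2:**
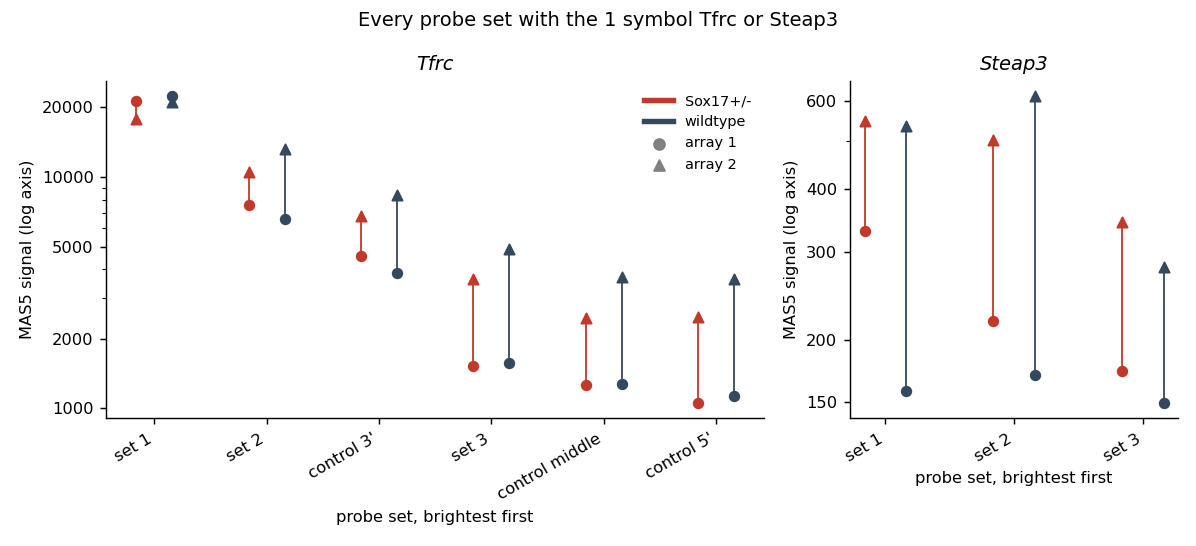
MAS5 signal (log axis) of every probe set that names Tfrc or Steap3 alone, brightest first, in Sox17+/- (red) and wildtype (dark) liver; a line joins array 1 (circle) and array 2 (triangle) of a genotype. Array 2 lies above array 1 in both genotypes on 5 of 6 Tfrc probe sets and on all 3 Steap3 probe sets.

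Slc11a2 encodes the divalent metal transporter DMT1, which moves ferrous iron out of the endosome, and lies at chr15:100387898-100424209. Its brightest probe set had signals of 775 and 1171 in Sox17+/- liver against 761 and 1228 in wildtype liver. The values paired by array number and not by genotype. The log2 difference was -0.02 (SE 0.34, 95% interval -0.88 to 0.84). A dimmer Slc11a2 probe set did not overlap, with 507 and 625 in Sox17+/- against 687 and 681 in wildtype liver, a log2 difference of -0.27 (SE 0.22, unadjusted p = 0.257, adjusted p = 0.9999 by limma). Another set gave 286 and 445 in Sox17+/- against 370 and 423 in wildtype liver, and overlapped. The dimmest gave 69.3 and 32.9 in Sox17+/- against 90.9 and 125 in wildtype liver, lower with no overlap, but was below the brightness filter and not tested. Which transcripts of Slc11a2 each probe set detects was not analysed here.

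Slc25a37 encodes mitoferrin 1, the carrier that delivers iron to erythroblast mitochondria, and lies at chr14:69241848-69285544. Its only probe set with 1 symbol had signals of 30855 and 23232 in Sox17+/- liver against 33559 and 24738 in wildtype liver. Each Sox17+/- array was below the wildtype array of its number, but the genotypes overlapped. The mean was 27043 ± 5390 in Sox17+/- and 29149 ± 6237 in wildtype liver (SD, n = 2 each), and the log2 difference was -0.11 (SE 0.27, 95% interval -0.79 to 0.58), with pair values of -0.12 and -0.09. By mean signal this probe set was brighter than 99.7% of the probe sets that are no controls.

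Erythroid markers had a median difference near 0 on the same arrays, though single markers varied. Of 14 tested, 3 lay above wildtype in both pairs (25.5% of all tested genes), 4 below (32.2%) and 7 on opposite sides. With 0 past the adjusted threshold, the median log2 difference was 0.01, with a range from -0.24 to 0.49. With no overlap, 3 markers were higher (14.5% of all tested genes) and 2 lower (18.6%). Their summed signal over all 14 was 162957 and 152545 in Sox17+/- against 157999 and 154045 in wildtype liver. Slc4a1, the red cell anion exchanger, had 30904 and 22395 in Sox17+/- against 31001 and 22059 in wildtype liver. Rhd, a red cell surface protein, had 17169 and 13307 in Sox17+/- against 13470.5 and 13583 in wildtype liver. The part of erythroid content in the values of the 4 uptake genes was not tested.

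For storage, Fth1 encodes the ferritin heavy chain, the ferroxidase subunit, and lies at chr19:9980600-9985111. Its signals were 46555 and 29278 in Sox17+/- liver against 40697 and 31695 in wildtype liver. The arrays numbered 1 were the brightest in both genotypes, and the Sox17+/- arrays were the highest and the lowest of the 4. The mean was 37917 ± 12216 in Sox17+/- and 36196 ± 6365 in wildtype liver (SD, n = 2 each), a log2 difference of 0.04 (SE 0.31, 95% interval -0.73 to 0.81). It was 0.19 in the arrays numbered 1 and -0.11 in those numbered 2. The other Fth1 probe set gave 34012 and 21497 in Sox17+/- against 31178 and 22402 in wildtype liver, the same order of arrays.

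The ferritin light chain could not be read alone, because 3 probe sets name Ftl1 together with its pseudogene Ftl1-ps2, and 1 of them also names 3 copies of the Mir692 gene. These sets were not taken as values of Ftl1. The brightest gave 30524 and 18743 in Sox17+/- against 21501 and 14683 in wildtype liver, a log2 difference of 0.43 (SE 0.34). The next gave 20692 and 14576 in Sox17+/- against 19367 and 13952 in wildtype liver, a difference of 0.08 (SE 0.29). The dimmest gave 2804 and 1937 in Sox17+/- against 1297 and 1540 in wildtype liver, a difference of 0.72 (SE 0.27), and was the only one whose genotypes did not overlap. All 3 were higher in Sox17+/- in both pairs, against 25.5% of all tested genes, by different amounts for probe sets with largely the same annotation. Higher with no overlap was 1 of the 3, against 14.5% of all tested genes. Because they share symbols, the 3 sets do not count as 3 separate genes. The dimmest had an unadjusted p of 0.0412, and all 3 had an adjusted p of 0.9999 by limma.

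The receptor and the ferritin subunits stand on opposite sides of iron regulation, and stretches of 130 bases just before an annotated start of each are shown from RefSeq (GRCm38.p6), 5′ to 3′ on the gene's strand. Capitals mark CCAAT, the letters bound by the factor NF-Y, read on either strand.
Tfrc, chr16:32608766-32608895, plus strand: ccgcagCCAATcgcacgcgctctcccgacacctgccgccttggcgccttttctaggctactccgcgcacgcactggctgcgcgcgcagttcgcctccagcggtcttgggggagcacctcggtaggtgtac
Fth1, chr19:9982516-9982645, plus strand: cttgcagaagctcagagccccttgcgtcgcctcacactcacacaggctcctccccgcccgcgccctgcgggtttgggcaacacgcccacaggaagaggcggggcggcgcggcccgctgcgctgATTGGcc
Ftl1, chr7:45459887-45460016, minus strand: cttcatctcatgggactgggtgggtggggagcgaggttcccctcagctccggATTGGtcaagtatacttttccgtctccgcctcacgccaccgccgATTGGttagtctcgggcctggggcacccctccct

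RefSeq windows of 300 bases, 250 before and 50 after a start, were matched for 6 of the 9 genes, 11 windows in all. CCAAT or its reverse complement was found in 4 of the 11 windows, against 37.4% of all 32851 windows, with 1 match for Tfrc at -124, 1 for Fth1 at -7 and 2 for Ftl1 at -78 and -34 from the start, and the remaining match in 1 of the 4 Steap3 windows. The windows at the other start of Tfrc (32609122) and of Fth1 (9980600, the gene start given above) had 0 matches, as did those of Aco1 and Ireb2. ACGTG, the core letters bound by hypoxia-inducible factors, was found on either strand in both Tfrc windows, at a single position that the windows share, against 19.6% of all windows. TGACNNNGC, the letters of the antioxidant response element, was found on either strand in 0 of the 11 windows, against 12.4% of all windows. A match is a description of the letters and not of binding.

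For export, Slc40a1 encodes ferroportin, the only known iron exporter of mammalian cells, and lies at chr1:45908070-45926532. Its signals were 9043 and 7618 in Sox17+/- liver against 8350 and 7486 in wildtype liver. Each Sox17+/- array was slightly above the wildtype array of its number, and the genotypes overlapped. The mean was 8330 ± 1008 in Sox17+/- and 7918 ± 611 in wildtype liver (SD, n = 2 each), a log2 difference of 0.07 (SE 0.22, 95% interval -0.48 to 0.62, adjusted p = 0.9999 by limma). The second Slc40a1 probe set gave 4252 and 4130 in Sox17+/- against 4303 and 4174 in wildtype liver, a log2 difference of -0.02 (SE 0.20). Its 4 values lay closer together than those of the first set.

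Ferroportin is abundant in macrophages that recycle red cells, and the macrophage and Kupffer cell list moved unevenly. Of 13 tested markers, 4 lay above wildtype in both pairs (25.5% of all tested genes) and 6 below (32.2%). With 0 past the adjusted threshold, the median log2 difference was -0.14. Single values ran from -1.68 for Vsig4 to 1.03 for Marco, both named here after their values were seen. With no overlap, 2 markers were higher (14.5% of all tested genes) and 4 lower (18.6%). Their summed signal was 34641 and 31826 in Sox17+/- against 36905 and 30319 in wildtype liver. Cd5l, a secreted macrophage protein, had 6510 and 5705 in Sox17+/- against 6458 and 5575 in wildtype liver. Csf1r, the receptor that sustains macrophages, had 5839 and 5976 in Sox17+/- against 7235 and 6087 in wildtype liver, and did not overlap. The part of macrophage content in the Slc40a1 values was not tested.

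Aco1 and Ireb2 encode iron regulatory proteins 1 and 2. Aco1, which doubles as the cytosolic aconitase, lies at chr4:40143265-40199009 and had signals of 7734 and 8031 in Sox17+/- liver against 10823 and 7198 in wildtype liver. Wildtype array 1 was the highest of the 4 and wildtype array 2 the lowest, with both Sox17+/- arrays between them. The log2 difference was -0.16 (SE 0.27, 95% interval -0.84 to 0.51), made of -0.48 in the arrays numbered 1 and 0.16 in those numbered 2. Without wildtype replicate 1 it was 0.13. The second Aco1 probe set had the same order, with 1640 and 1777 in Sox17+/- against 2564 and 1530 in wildtype liver, and the third was below the brightness filter.

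Ireb2, whose protein is degraded when iron is plentiful, lies at chr9:54862658-54912534 and varied least. Its signals were 1269 and 1362 in Sox17+/- liver against 1375 and 1342 in wildtype liver. The mean was 1316 ± 65.4 in Sox17+/- and 1359 ± 23.3 in wildtype liver (SD, n = 2 each). The log2 difference was -0.05 (SE 0.20, 95% interval -0.55 to 0.45), and the genotypes overlapped. Array signals measure transcripts only, so the binding activity of either regulatory protein was not measured.

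**Figure D3:**
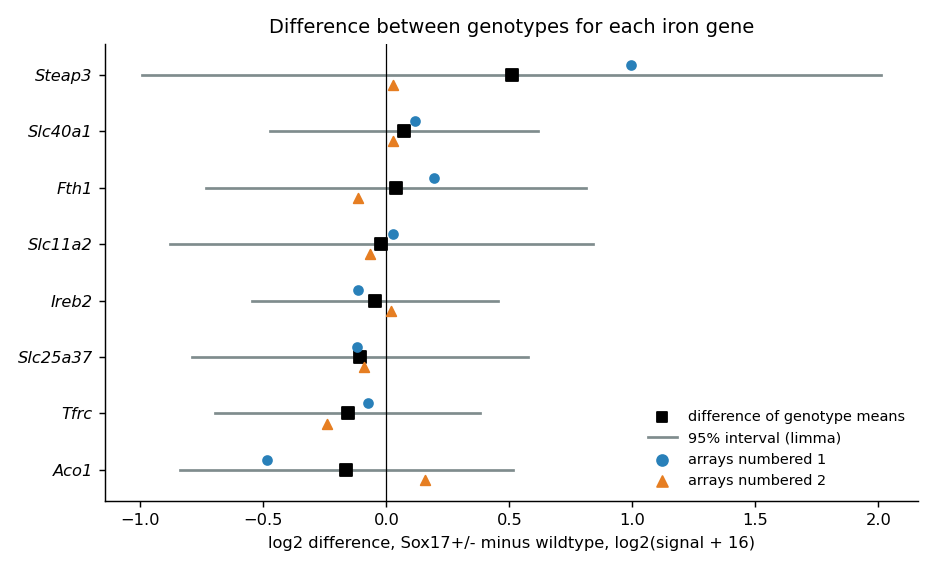
Log2 difference in signal, Sox17+/- minus wildtype, on the log2(signal + 16) scale for 8 iron genes, ordered by size: squares are differences of genotype means, lines 95% intervals from limma, circles and triangles the differences within the arrays numbered 1 and 2. Every interval includes 0, and that of Steap3 is the widest, from -0.99 to 2.01.

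The intervals limit what these arrays could show. On the brightest probe set, the 95% interval of 7 of the 8 genes lay within 1 log2 unit of 0 on both sides. For Steap3 it reached 4.04-fold higher. The other tested Tfrc probe sets had wider intervals, of -1.06 to 0.94 and -1.91 to 1.45, so they do not limit Tfrc to that extent. For all 8 genes the arrays of at least 1 genotype differed from each other by more than the genotype means did, as for 78.8% of all tested genes. In 6 of the 8 the array numbered 1 differed from the array numbered 2 in the same direction in both genotypes, against 62.9% of all tested genes. With the array number as a replicate block in limma, the smallest adjusted p among the 8 was 0.708, for Steap3, and the differences stayed the same by construction. With 2 arrays a genotype, the smallest two-sided p of an exact permutation test is 0.333.

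Partner genes of iron transport had log2 differences from -0.63 to 1.01, with a median of 0.18. Of 15 tested partners, 5 lay above wildtype in both pairs (25.5% of all tested genes), 5 below (32.2%) and 5 on opposite sides, with 0 past the adjusted threshold in limma. Cybrd1, a ferric reductase known from the duodenal brush border, had signals of 406 and 355 in Sox17+/- against 180 and 181 in wildtype liver. Both Sox17+/- arrays lay well above both wildtype arrays, which were nearly identical. The mean was 381 ± 36.03 in Sox17+/- and 180 ± 0.216 in wildtype liver (SD, n = 2 each), a log2 difference of 1.01 (SE 0.20, unadjusted p = 0.00368, adjusted p = 0.9999 by limma), with pair values of 1.11 and 0.92.

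Heph, the multicopper ferroxidase hephaestin that works with ferroportin, had 69.7 and 89.3 in Sox17+/- against 141 and 122 in wildtype liver. Its log2 difference was -0.63 (SE 0.22, unadjusted p = 0.0347, adjusted p = 0.9999 by limma), and the genotypes did not overlap. Steap4, a metalloreductase, had 732 and 476 in Sox17+/- against 536 and 388 in wildtype liver, and overlapped. Of the 15 partners, 2 were higher with no overlap (14.5% of all tested genes), which were Cybrd1 and Exoc6, and 5 were lower with no overlap (18.6%), which were Heph, Tfr2, Hfe, Steap2 and Slc22a17; of these, Exoc6, Tfr2, Hfe, Steap2 and Slc22a17 are named after their values were seen. Tfr2, the second transferrin receptor and an iron sensor of hepatocytes, had 2158 and 2421 in Sox17+/- against 4298 and 2704 in wildtype liver. Transferrin itself was not analysed here.

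Genes that handle iron inside the cell were close to level. Of 11 tested, 3 lay above wildtype in both pairs (25.5% of all tested genes), 3 below (32.2%) and 5 on opposite sides. With 0 past the adjusted threshold, the median log2 difference was 0.01, with a range from -0.22 to 0.33. Iscu, the scaffold of iron-sulphur cluster assembly, had 4844 and 3814 in Sox17+/- against 4051 and 3362 in wildtype liver. Abcb10, a mitochondrial transporter that binds mitoferrin 1, had 7916 and 7887 in Sox17+/- against 5266 and 7510 in wildtype liver, and did not overlap. Nfs1, the cysteine desulphurase, had 1542 and 2041 in Sox17+/- against 2018 and 2118 in wildtype liver.

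Haem recycling genes included a larger value. Hmox1, the inducible haem oxygenase that frees iron from haem, had 9123 and 7538 in Sox17+/- against 2261 and 4948 in wildtype liver, with no overlap. Its log2 difference was 1.31 (SE 0.41, unadjusted p = 0.0223, adjusted p = 0.9999 by limma), with 2.005 in the arrays numbered 1 and 0.61 in those numbered 2. Hpx, the plasma scavenger of haem, had 13790 and 10561 in Sox17+/- against 17513 and 12650 in wildtype liver. Hp, the scavenger of free haemoglobin, had 8381 and 3212 in Sox17+/- against 10777 and 4291 in wildtype liver, and both genes overlapped. Of 11 tested genes of this list, 4 lay above wildtype in both pairs (25.5% of all tested genes) and 5 below (32.2%). With no overlap, 4 were higher (14.5% of all tested genes), Hmox1 among them, and 1 was lower (18.6%). Past the adjusted threshold were 0, and the median was 0.02.

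Of 6 tested NRF2 target genes, 3 lay above wildtype in both pairs (25.5% of all tested genes) and 1 below (32.2%). With 0 past the adjusted threshold, the median log2 difference was 0.16. Srxn1, which restores oxidised peroxiredoxins, had 608 and 579 in Sox17+/- against 325 and 416 in wildtype liver. Txnrd1, a thioredoxin reductase, had 3954 and 3723 in Sox17+/- against 2905 and 2812 in wildtype liver. Gstm1, a glutathione transferase, had 6076 and 5450 in Sox17+/- against 9122 and 6250 in wildtype liver.

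Some transcripts outside the set were listed as carriers of iron-responsive elements, which were not checked in the mouse sequences here. Of the 5 tested, 2 lay above wildtype in both pairs (25.5% of all tested genes). In both pairs 0 lay below (32.2%), and 3 were on opposite sides. The median over all 5 was 0.09, and 0 passed the adjusted threshold. The first 2 were Cdc42bpa, a kinase, at 494 and 729 in Sox17+/- against 453 and 584 in wildtype liver, and Cdc14a, a phosphatase, at 109 and 129 in Sox17+/- against 103 and 97.2 in wildtype liver. Alas2, the first enzyme of erythroid haem synthesis, named here after its values were seen, was on opposite sides, at 22875 and 17197.5 in Sox17+/- against 20491 and 18323 in wildtype liver.

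Hepcidin, the hormone that removes ferroportin from the cell surface, had its gene Hamp at 15330 and 1472 in Sox17+/- against 799 and 341 in wildtype liver, a log2 difference of 3.15 (SE 1.12, unadjusted p = 0.0357, adjusted p = 0.9999 by limma). For Hamp the Sox17+/- arrays differed from each other by 3.37 log2 units, more than the genotype means did. Of 6 tested genes of the hepcidin list, 4 lay above wildtype in both pairs (25.5% of all tested genes) and 2 below (32.2%). With no overlap, 4 were higher (14.5% of all tested genes) and 1 lower (18.6%), and 0 passed the adjusted threshold. Hamp2 had 578 and 149 in Sox17+/- against 13.7 and 85.3 in wildtype liver, and Smad7, a feedback inhibitor of BMP signalling, had 361 and 311 in Sox17+/- against 238 and 129 in wildtype liver. The Slc40a1 transcript on the same arrays had a log2 difference of 0.07, as given above. Ferroportin protein, on which hepcidin acts, was not measured.

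**Figure D4:**
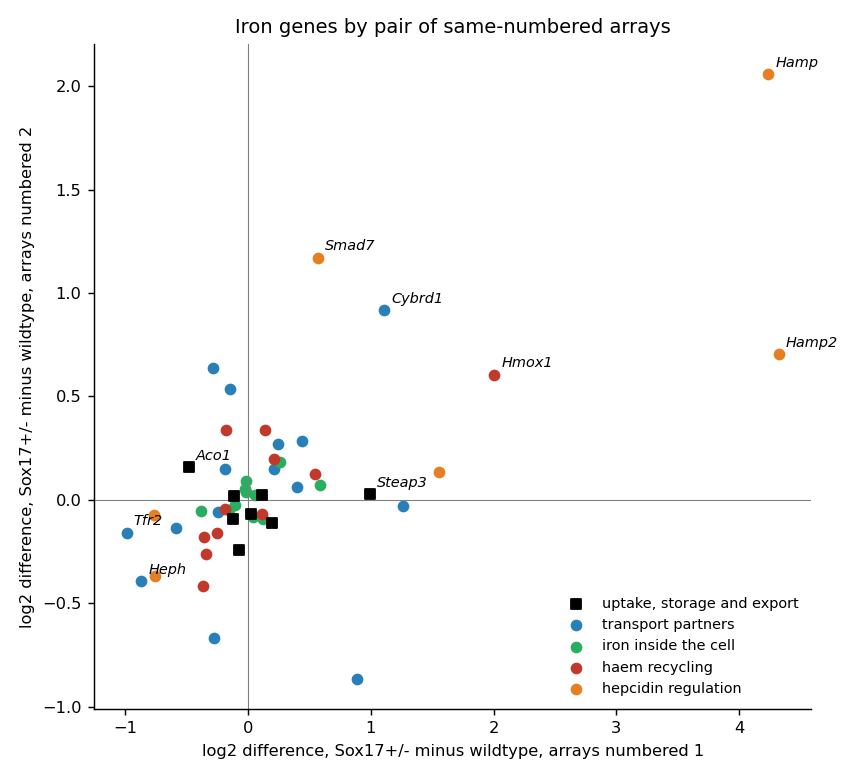
Log2 difference, Sox17+/- minus wildtype, within the arrays numbered 1 (horizontal) and within the arrays numbered 2 (vertical), log2(signal + 16) scale, for the 8 iron genes (black squares) and tested genes of 4 related lists (coloured circles). The squares lie near the origin except Steap3, at 0.99 and 0.03, and Aco1, at -0.48 and 0.16; Hamp, Hamp2, Hmox1, Cybrd1 and Smad7 lie above 0 on both axes.

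Markers of the other cell types a fetal liver holds are given for the same arrays. The 8 tested hepatocyte markers had a median log2 difference of -0.04 and summed signals of 310571 and 180133 in Sox17+/- against 314182 and 188968 in wildtype liver, so they followed the array number. All 7 tested megakaryocyte and platelet markers lay below wildtype in both pairs, against 32.2% of all tested genes, with 0 past the adjusted threshold. Of the 7, 6 were lower with no overlap, against 18.6% of all tested genes. Their median was -0.26, with sums of 23386 and 24002 in Sox17+/- against 29627 and 28378 in wildtype liver. The 9 tested endothelial markers had a median of 0.12 and a range from -0.56 to 0.47. In both pairs 4 lay above wildtype (25.5% of all tested genes) and 1 below (32.2%). With no overlap, 4 were higher (14.5% of all tested genes) and 1 lower (18.6%), and 0 passed the adjusted threshold. Their sums were 9079 and 9376 in Sox17+/- against 9197 and 7383 in wildtype liver. The 3 tested biliary markers had sums of 460 and 311 in Sox17+/- against 407 and 326 in wildtype liver. The part of these cell types in the values of the 8 iron genes was not tested.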

How the data were processed

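Whole fetal liver RNA was measured on 4 arrays. The authors deposited linear probe set intensity values; the submitters' processing notes name MAS5. On each array the deposited signals average 500 once the 2% at either end are set aside, so differences in total RNA are not seen. Of 45101 probe sets, 64 controls stayed out of the tests; of the other 45037, 34945 carried 1 gene symbol, 932 several and 9160 none listed. Log2(signal + 16) values of the brighter 50% of probe sets (22519) were tested for genotype with limma 3.58.1 under R 4.3.3, two-sided, with Benjamini-Hochberg adjustment over all 22519 and a threshold of 0.05, without further normalization. Residual degrees of freedom were 2, and the prior added 3.24. The filter uses mean log2 signal. This reading of "mean signal" was taken after a first run with mean linear signal, whose results are among the alternatives. The code was tested on simulated data. The number of arrays limits the precision.

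The members and lists were chosen with earlier results of these data known. Named were all 9 genes, up to 3 genes per related list by the smaller of their same-direction pair differences, Hamp and Hmox1, the 3 tested genes nearest in profile to the member with the largest difference, and the brightest markers per cell type; others are marked in the text. Same-numbered arrays share a code in the labels, of unstated meaning, and their deviations from the genotype means correlated at r = 0.383 across 22519 probe sets, so pair differences are shown. Alternatives were pseudocounts of 1 and 64, no filter, the brighter 25%, median centring, quantile normalization, a replicate block, each array left out, a trended robust prior and other choices of probe set.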

Additional observations from a re-analysis of the deposited data

How the results depend on the processing

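Across 15 alternatives, 119 values of single member genes were recomputed. In 48 of these the setting left the log2 difference itself as it was, so its direction could not change; of the other 71, 58 kept their direction and 13 changed sign. None of the 119 that was tested passed the adjusted threshold (0 calls); the smallest adjusted p in limma was 0.393, for Steap3 without wildtype replicate 2. Steap3 has no value with the brighter 25% of probe sets, which it is not among. The count of probe sets past the threshold, 0 of 22519 with 923 at an unadjusted p under 0.05, was 5 with median centring, 3 with a trended and robust prior, and 0 whichever array was left out. The members' median, -0.03, ranged from -0.10 to 0.042 with 1 array left out and was 0.013 with median centring. A shift counted as a move above 0.0744, the SD between replicate arrays of the members' median centred log2 value. This yardstick was set after a first output was seen. By it the median moved only without wildtype replicate 1, to 0.042. With 1 array left out the log2 difference ranged from -0.36 to 0.32 for Slc11a2, -0.054 to 0.19 for Slc40a1 (-0.0087 without wildtype replicate 2), -0.29 to 0.37 for Fth1, -0.32 to 1.35 for Steap3, -0.33 to 0.11 for Slc25a37, -0.097 to 0.0033 for Ireb2, -0.46 to 0.13 for Aco1 and -0.29 to -0.030 for Tfrc. Such fits compare unequal array numbers and assume that the lone array varies like the other genotype. Median centring added 0.047 to every member, which put Slc11a2 at 0.026. As the mean over all its probe sets, Aco1 was 0.029, since its dim untested set had 0.46 against -0.16 and -0.21 on the others; Slc11a2 was -0.34 and Steap3 0.26 by the same mean, against -0.02 and 0.51 on the brightest set. With the replicate block, 1693 probe sets had an unadjusted p under 0.05, 0 passed after adjustment, the members' median was -0.034 and no call changed. Filtering by mean linear signal, the setting of the first run, gave 0 past the threshold and 916 at an unadjusted p under 0.05; the log2 filter reported here was chosen after seeing the data, and the linear one was then kept as an added alternative. With 2 arrays a genotype, the differences measured for all 8 members were smaller than their standard errors.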
